A study of Homo sapiens with 12 samples.

Results

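Read-through transcripts join a gene to the next gene downstream, and 56 of them were measured in NB4 and Kasumi-1 leukemia cells with and without the compound OGP46. The rows were found by their symbols. A row counted as a read-through row when its symbol had the form A-B with a single hyphen and when A and B were each listed as a gene of their own. Of the 20003 gene symbols used, 76 had this form, and the 56 kept reached 0.1 FPKM in at least 1 of the 12 samples. FPKM (fragments per kilobase of transcript, scaled to the fragments mapped) is a level scaled to transcript length and library size. The rows were thus selected on their symbol and their FPKM, so levels are given as a description. The last rows kept were RNF103-CHMP3, with a highest value of 0.105 FPKM, and LY75-CD302, with 0.174 FPKM. The first rows left out were TNFSF12-TNFSF13, at 0.0956 FPKM, and TRIM6-TRIM34, at 0.0888 FPKM.

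In most genes, RNA polymerase II transcribes past the poly(A) signal, the RNA is cleaved there, and the polymerase is released. When cleavage is missed, transcription runs on into the neighbour, and splicing can join an exon of the upstream gene A to an exon of the downstream gene B. Such joined RNAs are known as read-through or conjoined transcripts. Some encode a fusion of both proteins and others carry a frame that ends early, which makes them possible targets of nonsense-mediated decay.

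NB4 is an acute promyelocytic leukemia line with the PML-RARα fusion, and Kasumi-1 is an acute myeloid leukemia line with the t(8;21) fusion AML1-ETO. Each line had 3 control samples with DMSO and 3 samples with 1 μM OGP46, a kaurene diterpenoid made from oridonin. By the labels and the study's methods the incubation lasted 48 h (a figure legend of the study gives a longer time). Each line is a single cultured line, and the labels do not say whether the 3 samples of a group came from separate cultures, so the spread between them may be technical. In bulk RNA, fewer cells that express a gene and less RNA per cell cannot be told apart.

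The FPKM of a sample summed to between 248207 and 310262, and between 9339 and 9746 genes reached 1 FPKM. The sequencing depth behind these values is unknown. The marker genes listed for Kasumi-1 (RUNX1T1, POU4F1, TRH, KIT, CD34 and HLA-DRA) summed to between 242 and 310 FPKM in Kasumi-1 and to between 0.730 and 3.87 FPKM in NB4. The marker genes listed for NB4 (MPO, ELANE, PRTN3, AZU1, CTSG and HGF) did not separate the lines: they summed to between 1590 and 3952 FPKM in NB4 and to between 7778 and 11930 FPKM in Kasumi-1. Genes of T, B, erythroid and epithelial cells summed to between 20.5 and 58.3 FPKM over 11 genes, with MS4A1 and HBG1 at 0 in all samples.

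The structure of the loci was read from GENCODE release 29 on GRCh38, the build that the submitters' notes also name, although the annotation they counted against is not given in the sources used here. For 46 of the 56 loci, A-B, A and B were all present under these symbols. In 46 of these 46 loci A lay upstream of B on the same strand. The median gap from the end of A to the start of B was 5550 bp, and in 8 loci the 2 genes overlapped. In 43 loci a transcript of A-B spliced an exon of A to an exon of B. The donor was an annotated exon end of A in 36 of them and the acceptor an annotated exon start of B in 41. In 39 of the 41, the acceptor skipped exactly 1 exon of B, which is its first, and in 24 of the 35 loci where this could be counted the donor skipped exactly 1 exon of A, which is its last. The junction lay in coding sequence in 39 loci. The frame of B was kept in 24 of these and was not kept in 4 (ISY1-RAB43, NDUFC2-KCTD14, PMF1-BGLAP and URGCP-MRPS24). It was not defined in 11, where no coding segment of B is annotated to start at the acceptor.

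Most A-B rows had little sequence of their own. The median share of the exonic bases of A-B that belonged neither to A nor to B was 1.25% (range 0 to 65.0%), and it was below 10% in 33 of the 46 loci. Of the 3 loci called in NB4, this share was 3.41% in TMED7-TICAM2, 37.2% in JMJD7-PLA2G4B and 0% in URGCP-MRPS24. Fragments across the junction and in the bases outside A and B are the ones that belong to A-B alone. How the authors' pipeline divided the others between the 3 rows is not given in the sources used here. In RefSeq (GRCh38.p14), the start of A-B was at the same base as the start of A in 29 of the 41 loci with both entries. Among the others, BUB1B-PAK6 started 56359 bp from the start of BUB1B. URGCP-MRPS24 started 20130 bp from that of URGCP, and MSANTD3-TMEFF1 14763 bp from that of MSANTD3. The median distance from the start of A-B to the start of B was 24818 bp over 36 loci. The poly(A) signal AATAAA (transcript strand only) was in the last 50 bases of the longest complete coding transcript for 39 of 55 upstream genes A (70.9%), beside 61.2% of 19122 genes of the files. The variant ATTAAA without AATAAA was there in 3.64% of the A genes and in 13.8% of all genes, and neither was there in 25.5% and 25.0%.

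The junctions of 9 loci are shown, since a read that crosses them can tell A-B from A and B. They are the 3 loci called in NB4, the 5 with the highest A-B level and the locus with the widest gap between the lines. Each comes from a chosen GENCODE 29 transcript of A-B and holds 30 bases on either side, 5′ to 3′. The exon of A is in lower case and the exon of B in capitals. At TMED7-TICAM2 neither side is an annotated exon border of TMED7 or TICAM2.
TMED7-TICAM2: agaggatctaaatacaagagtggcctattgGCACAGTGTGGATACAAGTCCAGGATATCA
JMJD7-PLA2G4B: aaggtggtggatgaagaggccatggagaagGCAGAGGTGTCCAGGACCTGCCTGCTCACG
URGCP-MRPS24: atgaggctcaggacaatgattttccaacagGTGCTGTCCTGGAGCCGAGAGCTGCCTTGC
NME1-NME2: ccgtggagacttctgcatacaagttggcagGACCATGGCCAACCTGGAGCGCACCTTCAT
RPL36A-HNRNPH2: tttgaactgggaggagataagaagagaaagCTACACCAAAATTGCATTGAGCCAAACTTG
RPS10-NUDT3: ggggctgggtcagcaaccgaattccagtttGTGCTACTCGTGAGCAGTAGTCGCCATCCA
BCL2L2-PABPN1: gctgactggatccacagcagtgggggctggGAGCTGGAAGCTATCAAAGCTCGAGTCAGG
TMEM189-UBE2V1: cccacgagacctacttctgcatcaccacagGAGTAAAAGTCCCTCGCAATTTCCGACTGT
TVP23C-CDRT4: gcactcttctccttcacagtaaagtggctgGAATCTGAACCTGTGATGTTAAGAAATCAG
On GRCh38 the A-B gene TMED7-TICAM2 lies at chr5:115578642-115626161 on the minus strand, JMJD7-PLA2G4B at chr15:41828095-41848155 on the plus strand and URGCP-MRPS24 at chr7:43866558-43906589 on the minus strand. NME1-NME2 lies at chr17:51153590-51171744 (plus), RPL36A-HNRNPH2 at chrX:101391011-101412297 (plus) and RPS10-NUDT3 at chr6:34284887-34426071 (minus). BCL2L2-PABPN1 lies at chr14:23306835-23325369 (plus), TMEM189-UBE2V1 at chr20:50081124-50153637 (minus) and TVP23C-CDRT4 at chr17:15436021-15563561 (minus).

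The mean levels of the A-B rows ran from 0.00876 FPKM, in RNF103-CHMP3, to 349.7 FPKM, in NME1-NME2. The median of their mean levels over the 12 samples was 1.85 FPKM. Of the 56 rows, 35 had a mean of at least 1 FPKM, 9 of at least 10 FPKM, and 4 had a mean below 0.1 FPKM.

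**Figure D1:**
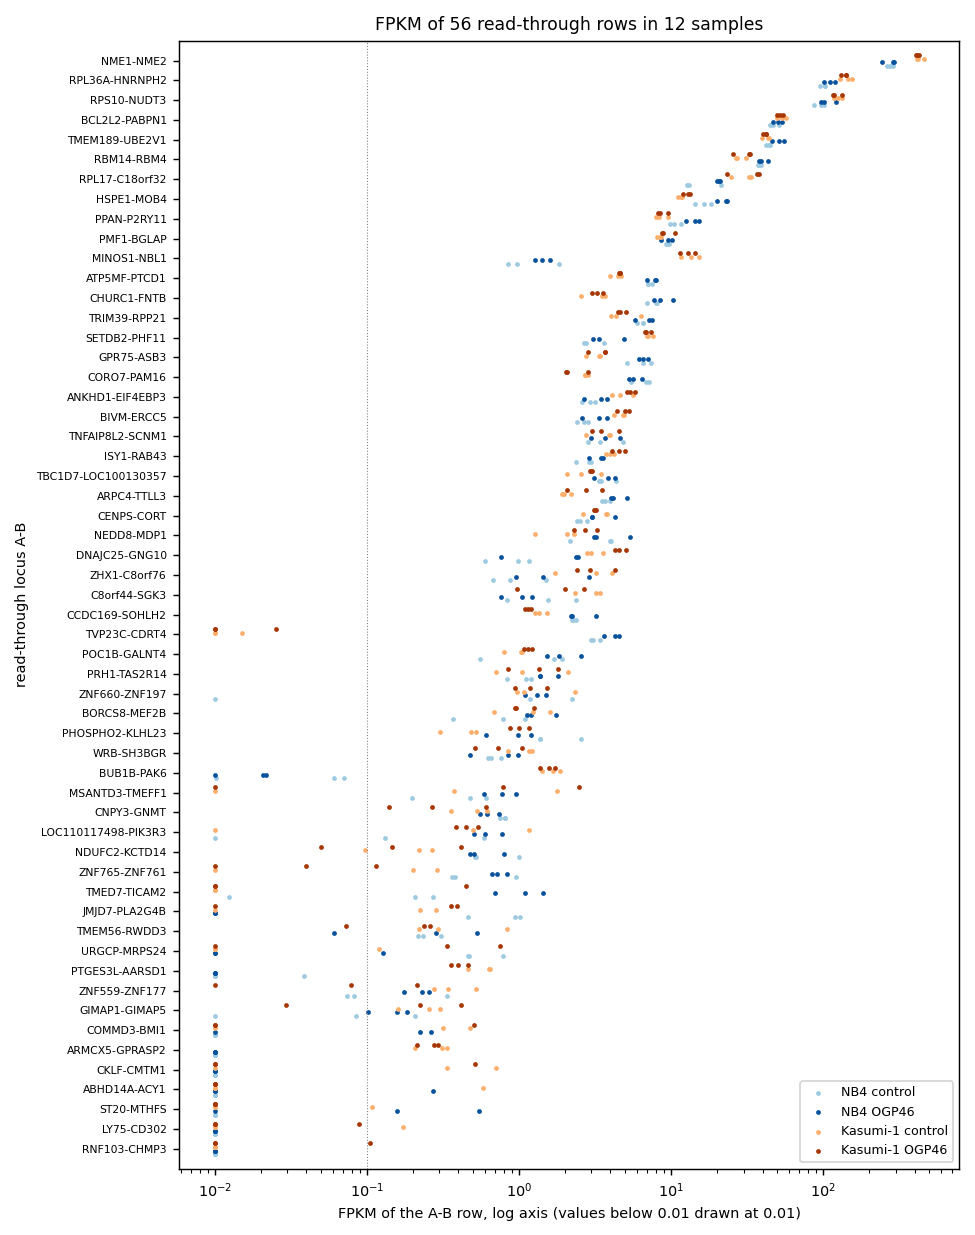
FPKM of the A-B row (log axis, values below 0.01 drawn at 0.01) for the 56 loci in 12 samples, 3 points for each of the 4 groups, ordered by the mean over all samples; the dotted line is the minimum of 0.1 FPKM that chose the rows. NME1-NME2 has the highest mean (349.7 FPKM), and in TVP23C-CDRT4, BUB1B-PAK6 and MINOS1-NBL1 the points of the NB4 and Kasumi-1 samples lie apart.

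Of the 5 rows with the highest mean level, 2 began with a ribosomal protein gene. NME1-NME2, which joins a pair of nucleoside diphosphate kinases, had a mean of 349.7 FPKM. RPL36A-HNRNPH2 joins a large-subunit ribosomal protein to a splicing factor and had a mean of 123 FPKM. RPS10-NUDT3 joins a small-subunit ribosomal protein to an inositol pyrophosphate hydrolase and had a mean of 113 FPKM. BCL2L2-PABPN1, of a survival protein of the BCL2 family and the nuclear poly(A)-binding protein, had a mean of 51.0 FPKM. TMEM189-UBE2V1, of a plasmalogen desaturase and a ubiquitin-conjugating enzyme variant, had a mean of 44.7 FPKM. The next rows by mean level were RBM14-RBM4, of a pair of RNA-binding proteins, at 34.3 FPKM, RPL17-C18orf32 at 24.9 FPKM, HSPE1-MOB4, of a mitochondrial chaperonin and an adaptor of the STRIPAK complex, at 15.7 FPKM, PPAN-P2RY11, of a ribosome biogenesis factor and a purinergic receptor, at 10.5 FPKM, and PMF1-BGLAP, of a kinetochore protein and osteocalcin, at 9.16 FPKM.

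The joined row was the highest of its locus in a minority of loci. A-B had the highest mean of the 3 rows in 11 loci, A in 27 and B in 18. The share of A-B in its locus, taken as A-B divided by the sum of A-B, A and B, had a median of 14.8% over the 56 loci (0.0435% to 81.3%), was at least 50% in 10 loci and below 10% in 24. Among loci that summed to at least 1 FPKM, the 5 with the highest mean share were TMEM189-UBE2V1, RPL36A-HNRNPH2, BCL2L2-PABPN1, NME1-NME2 and GPR75-ASB3, the last of a G protein-coupled receptor and a SOCS box protein.

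In TMEM189-UBE2V1 the share was 78.1% ± 1.96 in NB4 controls and 83.9% ± 0.645 in Kasumi-1 controls (SD, n = 3 each). UBE2V1 itself was listed at 0.43 to 1.05 FPKM over the 12 samples, below A-B in every sample, where A-B ran from 39.7 to 55.4 FPKM. In BCL2L2-PABPN1, A-B ran from 44.7 to 57.1 FPKM, BCL2L2 from 3.52 to 4.92 FPKM and PABPN1 from 12.1 to 22.6 FPKM. In BCL2L2-PABPN1 the share was 73.5% ± 1.97 in NB4 controls and 71.9% ± 1.09 with OGP46 (SD, n = 3 each).

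**Figure D2:**
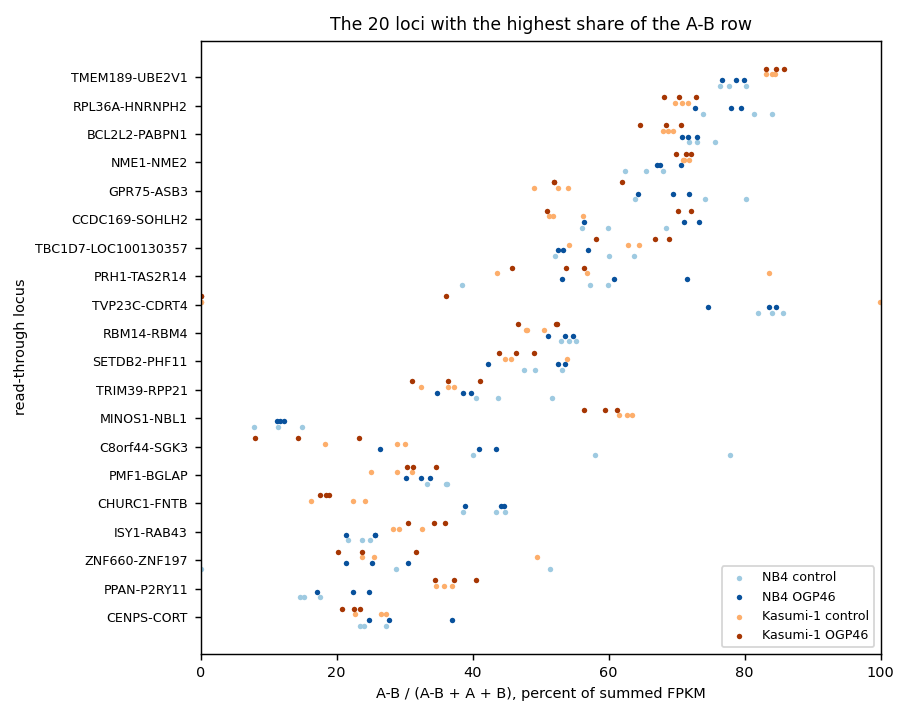
Share of the A-B row in the summed FPKM of A-B, A and B (percent) for the 20 loci with the highest mean share among those that summed to at least 1 FPKM, 3 points for each of the 4 groups. In GPR75-ASB3, the last of the 5 loci at the top, the points run from 49.1% to 80.2%, with those of NB4 above those of Kasumi-1. In MINOS1-NBL1 and CHURC1-FNTB the points of the 2 lines also lie apart. The Kasumi-1 points of TVP23C-CDRT4 rest on sums below 0.1 FPKM.

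B was listed below 0.1 FPKM in all 12 samples in 4 loci, each with a mean A-B level above 0.1 FPKM: BUB1B-PAK6, NDUFC2-KCTD14, PMF1-BGLAP and TVP23C-CDRT4. The osteocalcin gene BGLAP had a highest value of 0.0894 FPKM, whereas PMF1-BGLAP ran from 8.10 to 10.6 FPKM. The kinase gene PAK6 was listed at 0 or below 0.01 FPKM in every sample, whereas BUB1B-PAK6 had a mean of 1.65 FPKM in Kasumi-1 controls. In NB4, BUB1B-PAK6 itself was below 0.1 FPKM, and TVP23C-CDRT4 was below it in Kasumi-1.

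The question of the OGP46 comparison in NB4 was which joined rows moved with the compound, and whether their locus moved with them. Of the 56 rows, 48 passed the minimum mean of 0.1 FPKM and were tested, and 8 were not. By the limma test on log2(FPKM + 0.1), called at a Benjamini-Hochberg adjusted p below 0.05 over all genes and a log2 difference of at least 0.58, 1 read-through row was higher with OGP46 and 2 were lower. Among the 11750 genes tested, 1.45% were called higher and 0.111% lower. The median difference over the 48 rows was 0.21, beside 0.18 over all genes, on the log2 scale. With the replicate number as a block, 4 rows were higher and 3 lower, beside 5.06% and 1.15% of all genes. With the block and every sample centred on its median, the split was 1 higher and 4 lower.

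TMED7-TICAM2 was the row that rose. TMED7 is a cargo receptor of the early secretory pathway, and TICAM2 is the adaptor that links TLR4 to type I interferon signaling. The joined row was at 0.207, 0.0125 and 0.273 FPKM in the NB4 controls and at 1.09, 0.694 and 1.45 FPKM with OGP46. Every OGP46 sample lay above every control. The difference on log2(FPKM + 0.1) was 2.28 ± 0.45 (SE), with an adjusted p of 0.045 by limma and of 8.17e-05 with the replicate block. With 1 or 0.01 FPKM added in place of 0.1 it was 0.83 or 3.23, and with 0.01 it was not called (adjusted p = 0.0768).

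The parents of TMED7-TICAM2 did not pass the test. TMED7 had a mean of 16.7 ± 1.61 FPKM in controls and 19.8 ± 1.77 FPKM with OGP46 (SD, n = 3 each), a log2 difference of 0.24 ± 0.10 (SE). TICAM2 had a mean of 1.21 ± 0.212 FPKM in controls and 0.965 ± 0.265 FPKM with OGP46, a log2 difference of -0.32 ± 0.21. A-B thus passed from below TICAM2 in 3 of 3 controls to above it in 2 of 3 OGP46 samples. In Kasumi-1 the joined row was below 0.01 FPKM in 5 of 6 samples and at 0.45 FPKM in OGP46 sample 2, the sample in which TICAM2 itself was near 0.

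JMJD7-PLA2G4B fell, and its downstream gene rose. JMJD7 is a jumonji-domain hydroxylase and PLA2G4B a cytosolic phospholipase A2. The joined row was at 1.02, 0.946 and 0.46 FPKM in the NB4 controls and below 0.01 FPKM in the 3 OGP46 samples. PLA2G4B was at 0.0174, below 0.01 and 0.456 FPKM in the controls and at 1.16, 1.62 and 1.12 FPKM with OGP46. For neither row did the groups overlap. On log2(FPKM + 0.1) the joined row differed by -3.12 ± 0.31 (SE, adjusted p = 0.0204 by limma) and PLA2G4B by 2.88 ± 0.58 (adjusted p = 0.0462). Since 1 group lies near 0, these differences depend on the value added before the logarithm and give no fold.

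The sum of both rows was also formed. JMJD7-PLA2G4B plus PLA2G4B came to 1.04, 0.947 and 0.916 FPKM in the NB4 controls and to 1.16, 1.62 and 1.12 FPKM with OGP46. JMJD7 had a mean of 2.17 ± 0.728 FPKM in controls and 2.53 ± 0.516 FPKM with OGP46 and did not pass the test. The sum of A-B, A and B differed by 0.28 ± 0.19 on the log2 scale (SE, adjusted p = 0.341 by limma).

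URGCP-MRPS24 also fell. URGCP is named for promoting cell proliferation, and MRPS24 is a protein of the small mitochondrial ribosomal subunit. The joined row was at 0.784, 0.471 and 0.465 FPKM in the NB4 controls, at 0.128 FPKM in OGP46 sample 2 and below 0.01 FPKM in OGP46 samples 1 and 3. The groups did not overlap, and the difference on log2(FPKM + 0.1) was -2.32 ± 0.38 (SE, adjusted p = 0.0335 by limma). With 1 or 0.01 FPKM added it was -0.59 or -4.56, and with 0.01 it was not called (adjusted p = 0.0574). MRPS24 stood far above it at 104 ± 6.03 FPKM in controls and 109 ± 2.14 FPKM with OGP46, and URGCP at 3.91 ± 0.508 and 4.46 ± 0.311 FPKM (SD, n = 3 each). Neither parent passed the test.

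**Figure D3:**
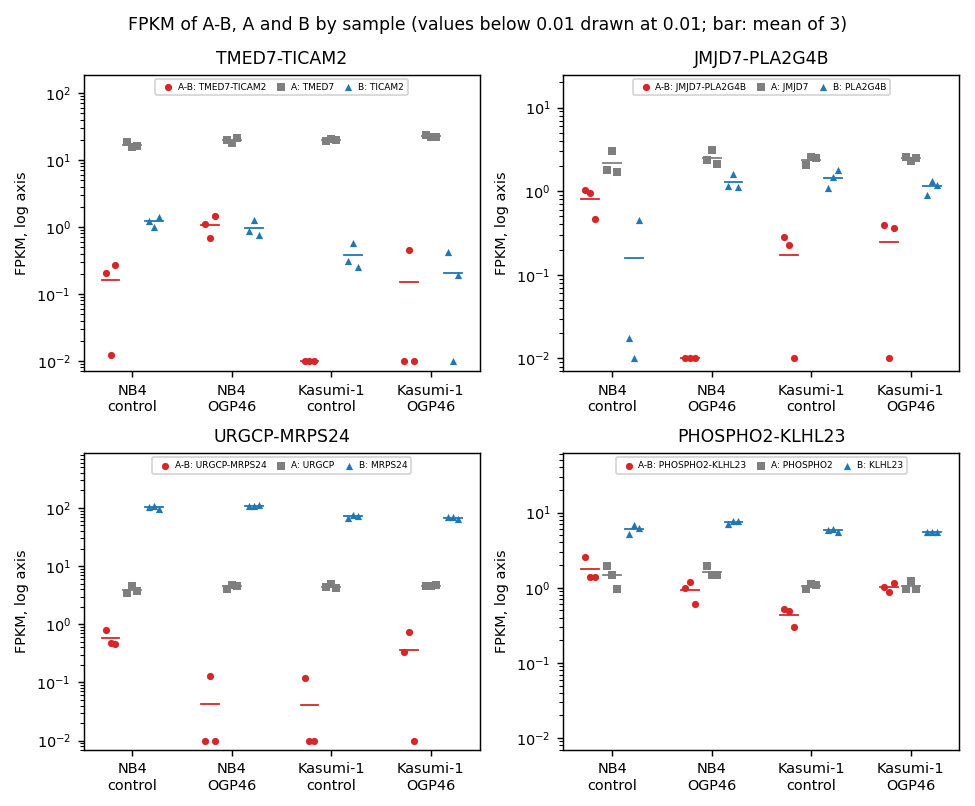
FPKM (log axis, values below 0.01 drawn at 0.01) of A-B (circles), A (squares) and B (triangles) in each sample of the 4 groups at TMED7-TICAM2, JMJD7-PLA2G4B, URGCP-MRPS24 and PHOSPHO2-KLHL23; bars are means of 3 samples. The upstream genes keep to a narrow range, while JMJD7-PLA2G4B falls from 0.46 to 1.02 FPKM in NB4 controls to below 0.01 with OGP46 and PLA2G4B rises.

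These 3 calls depended on single libraries. With NB4 control 1, NB4 control 2, NB4 OGP46 1 or NB4 OGP46 3 left out, none of the 3 was called, and without NB4 control 3 only JMJD7-PLA2G4B was, while all 3 were called without NB4 OGP46 2. The number of genes called over all genes fell in the same refits to between 0 and 2, against 183 with all samples and 396 without NB4 OGP46 2. The log2 differences kept their signs in every refit, from 1.75 to 2.61 for TMED7-TICAM2, from -3.44 to -2.93 for JMJD7-PLA2G4B and from -2.72 to -2.11 for URGCP-MRPS24. With FPKM scaled to a common total or centred on the median, no gene of the files was called.

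The other rows called with the replicate block were higher in 3 cases. BORCS8-MEF2B, of a lysosome-positioning subunit and a MADS-box transcription factor, was at 0.368, 0.791 and 1.10 FPKM in the NB4 controls and at 1.14, 1.19 and 1.76 FPKM with OGP46, without overlap. Its log2 difference was 0.86 ± 0.33, with an adjusted p of 0.141 by limma and of 0.00786 with the block. MSANTD3-TMEFF1, of a Myb/SANT-domain protein and a transmembrane protein with follistatin-like domains, had a mean of 0.427 ± 0.208 FPKM in controls and 0.775 ± 0.184 FPKM with OGP46, and the groups overlapped. LOC110117498-PIK3R3, which ends in a regulatory subunit of phosphoinositide 3-kinase, was at 0.131, 0.593 and below 0.01 FPKM in the controls and at 0.602, 0.506 and 0.775 FPKM with OGP46, again with overlap.

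PHOSPHO2-KLHL23 differed in sign between the lines. PHOSPHO2 is a phosphatase and KLHL23 a kelch-like protein. In NB4 the joined row was at 2.57, 1.38 and 1.38 FPKM in controls and at 0.98, 1.20 and 0.607 FPKM with OGP46. In Kasumi-1 it was at 0.52, 0.486 and 0.304 FPKM in controls and at 1.01, 0.868 and 1.17 FPKM with OGP46. The groups did not overlap in either line, lower in NB4 and higher in Kasumi-1. The log2 difference was -0.85 ± 0.30 in NB4 (limma adjusted p = 0.114, and 0.0108 with the block) and 1.07 ± 0.20 in Kasumi-1 (0.0747, and 0.0239 with the block).

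The difference of the 2 effects in PHOSPHO2-KLHL23 was -1.92 ± 0.39 on the log2 scale, with a limma adjusted p of 0.104, and of 0.0233 with the block. KLHL23 itself differed by 0.30 ± 0.12 in NB4 and by -0.06 ± 0.07 in Kasumi-1, and PHOSPHO2 by 0.17 ± 0.24 and -0.02 ± 0.14. Neither was called in either line, with the block or without it.

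Several rows had NB4 groups that did not overlap without a call. Of the 48 rows tested, 9 were higher in every OGP46 sample than in every control, beside 32.7% of all genes, and 4 were lower, beside 1.91% of all genes. HSPE1-MOB4 had a mean of 16.4 ± 1.94 FPKM in controls and 22.2 ± 1.77 FPKM with OGP46, a log2 difference of 0.44 ± 0.11 (SE, limma adjusted p = 0.0688). HSPE1, listed at 372 to 475 FPKM in the 6 NB4 samples, had overlapping groups. PPAN-P2RY11 had a mean of 10.7 ± 0.899 FPKM in controls and 14.1 ± 1.34 FPKM with OGP46, a log2 difference of 0.40 ± 0.10 (adjusted p = 0.0723). The 4 lower rows were CNPY3-GNMT, JMJD7-PLA2G4B, PHOSPHO2-KLHL23 and URGCP-MRPS24. CNPY3-GNMT, of a chaperone of Toll-like receptors and a methyltransferase, was at 0.746, 0.812 and 0.815 FPKM in controls and at 0.62, 0.738 and 0.555 FPKM with OGP46 (log2 difference -0.28 ± 0.16, limma adjusted p = 0.283).

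Further rows with wide differences in NB4 were not called. ST20-MTHFS was below 0.01 FPKM in the 3 controls and in OGP46 sample 3, and at 0.543 and 0.157 FPKM in OGP46 samples 1 and 2. ZNF660-ZNF197, of a pair of zinc finger proteins, was below 0.01, at 2.23 and at 1.19 FPKM in the 3 controls, and at 1.32, 1.10 and 1.51 FPKM with OGP46. C8orf44-SGK3, which ends in a serum- and glucocorticoid-regulated kinase, had a mean of 1.58 ± 0.768 FPKM in controls and 1.01 ± 0.231 FPKM with OGP46, a log2 difference of -0.52 ± 0.33 (SE, limma adjusted p = 0.323). With the block and median centring the joined row was called lower (-0.74, adjusted p = 0.0444). SGK3 was at 0.24, below 0.01 and 0.742 FPKM in controls and at 0.845, 0.932 and 1.43 FPKM with OGP46, without overlap. Its log2 difference was 1.90 ± 0.66 (limma adjusted p = 0.113), and it was called higher with the block (adjusted p = 0.00412).

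In Kasumi-1, 50 of the 56 rows were tested and 0 were called by limma. At an unadjusted p under 0.05, 4 rows were higher and 3 lower, beside 1852 of 11835 genes in both directions together. Among all 11835 genes tested 0.0169% were called higher and 0.0169% lower. The median difference over the rows was -0.03, beside 0.05 over all genes. With the replicate block 1 row, PHOSPHO2-KLHL23, was called higher, beside 0.27% of all genes, and 0 lower, beside 0.346%.

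DNAJC25-GNG10, of a DNAJ-domain chaperone and a G protein gamma subunit, was at 2.80, 3.00 and 3.60 FPKM in the Kasumi-1 controls and at 5.04, 4.27 and 4.54 FPKM with OGP46. Its groups did not overlap, and its log2 difference was 0.55 ± 0.11 (limma adjusted p = 0.0848, and 0.0244 with the block), below the minimum of 0.58. In NB4 it was at 0.597, 0.983 and 1.16 FPKM in controls and at 2.37, 0.764 and 2.43 FPKM with OGP46, with overlap. NEDD8-MDP1, of a ubiquitin-like modifier and a phosphatase, had a log2 difference of 0.56 ± 0.20 in Kasumi-1 without overlap (adjusted p = 0.232). ZNF559-ZNF177 was lower without overlap: it was at 0.342, 0.524 and 0.276 FPKM in controls and at 0.215, below 0.01 and 0.0788 FPKM with OGP46 (log2 difference -1.40 ± 0.40, adjusted p = 0.149). In all, 6 of the 50 rows were higher without overlap, beside 17.4% of all genes, and 3 were lower, beside 5.23%.

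Some rows with wide differences in Kasumi-1 were near 0 in a part of the samples of a group. CKLF-CMTM1, of a chemokine-like factor and a MARVEL-domain protein, was at 0.338, below 0.01 and 0.712 FPKM in the Kasumi-1 controls, and its upstream gene CKLF at 54.8 to 60.1 FPKM. COMMD3-BMI1, which ends in a Polycomb protein, was at 0.481, below 0.01 and 0.318 FPKM there. TMEM56-RWDD3, which was not near 0 in any of these samples, was at 0.837, 0.295 and 0.219 FPKM in the Kasumi-1 controls and at 0.0732, 0.261 and 0.236 FPKM with OGP46. URGCP-MRPS24 was at 0.121 FPKM in Kasumi-1 control 1 and below 0.01 FPKM in the others, and at 0.339, 0.751 and below 0.01 FPKM with OGP46 (log2 difference 1.36 ± 0.68, limma adjusted p = 0.362).

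The difference between the OGP46 effects in NB4 and Kasumi-1 was tested for 52 rows, and 0 were called by limma, beside 0% of 12309 genes. At an unadjusted p under 0.05, 4 rows were positive and 3 negative, beside 1348 of 12309 genes in both directions together. With the replicate block, 0 were called positive, beside 1.81% of all genes, and 2 negative, beside 0.114%. They were PHOSPHO2-KLHL23 and URGCP-MRPS24, the latter with a difference of effects of -3.68 ± 0.90 on the log2 scale (limma adjusted p = 0.174, and 0.0332 with the block). For JMJD7-PLA2G4B the difference was -3.39 ± 0.83 (adjusted p = 0.176, and 0.0591 with the block), and for TMED7-TICAM2 it was 1.44 ± 0.84 (0.536, and 0.238 with the block). A difference between the lines was therefore not shown for these 2 rows. The downstream gene PLA2G4B was called positive for the difference with the block (limma adjusted p = 0.0311). It was not called without the block, nor with the block and median centring (0.0752).

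The FPKM of A-B, A and B was also summed and tested by locus. In NB4, 0 of 56 summed loci were called by limma in either direction, with the block and without it, and their log2 differences ran from -0.22 to 0.49 with a median of 0.15. The minimum difference of 0.58 decided some of these: in NB4 3 sums had an adjusted p under 0.05, MSANTD3-TMEFF1 (0.49), ST20-MTHFS (0.43) and RNF103-CHMP3 (0.37), and 9 did with the block, all of them higher with OGP46. The share of all genes at this threshold is not given here, and the NB4 median over all genes was itself above 0, at 0.18. In Kasumi-1, 0 of 55 were called, and the differences ran from -0.50 to 0.34 with a median of 0.04, and 1 sum, POC1B-GALNT4 (0.29), had an adjusted p under 0.05 with the block. TMED7-TICAM2 summed to a difference of 0.27 ± 0.10 in NB4 (adjusted p = 0.1325, and 0.0436 with the block, below the minimum difference), and URGCP-MRPS24 to 0.07 ± 0.07. A row with much less FPKM than its partners can move far without moving the sum.

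**Figure D4:**
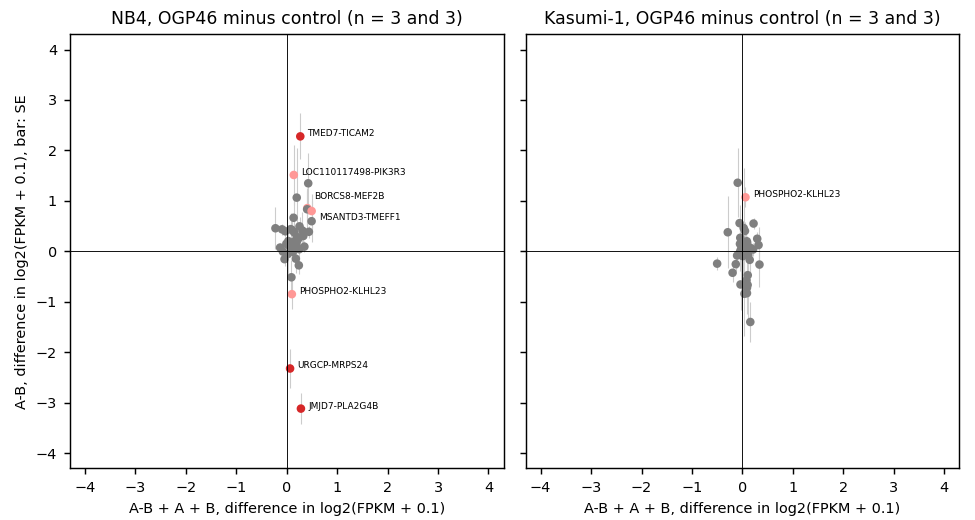
Difference between OGP46 and control in log2(FPKM + 0.1) of the A-B row (vertical, bars are SE) against that of A-B + A + B summed (horizontal, same scale), for the rows tested in NB4 (48) and Kasumi-1 (50 rows, those with a tested sum), 3 against 3 samples. Red points were called by limma, and light red points only with the replicate block; the sums stay between -0.50 and 0.49, while the A-B rows in NB4 run from -3.12 to 2.28.

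In some loci A-B was high where B was low between samples of a group, where no treatment differs. In ZNF660-ZNF197 the 3 NB4 controls had A-B below 0.01, at 2.23 and at 1.19 FPKM, B (ZNF197) at 2.88, 0.457 and 1.34 FPKM, and a sum of both of 2.88, 2.69 and 2.53 FPKM. In MSANTD3-TMEFF1 the 3 Kasumi-1 controls had A-B at 0.376, 1.77 and below 0.01 FPKM, B (TMEFF1) at 3.50, 1.81 and 3.24 FPKM, and a sum of 3.87, 3.58 and 3.24 FPKM. In both loci the sum of A-B and B varied less than either row. Over all loci, the deviations of A-B and B from their group means correlated below 0 in 33 of 55 loci (Pearson's r of log2 values over 12 samples, median -0.147), below -0.5 in 13 and above 0.5 in 4. The deviations of A-B and A correlated below 0 in 19 of 55 (median 0.174), below -0.5 in 2 and above 0.5 in 6. The r of A-B and B ran from -0.908, in ZNF660-ZNF197, to 0.894, in BIVM-ERCC5. Among rows called in NB4 without the block it was -0.654 in TMED7-TICAM2, -0.51 in JMJD7-PLA2G4B and 0.117 in URGCP-MRPS24. Among those called there only with the block it was -0.594 in BORCS8-MEF2B, -0.549 in PHOSPHO2-KLHL23, -0.509 in MSANTD3-TMEFF1 and -0.284 in LOC110117498-PIK3R3. The 12 samples share the library scaling and the division of fragments between the rows, and no test was made of these values.

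Switches between samples of a group were counted for all rows. Counting rows with a value below 0.01 FPKM and a value of at least 0.1 FPKM in the same group, there were 15 of 56 A-B rows, 0 of 54 A rows and 8 of 52 B rows that reached 0.1 FPKM, and 4.34% of the 13301 genes that reached it. Among rows with a mean of at least 0.5 FPKM, there were 2 of 39 A-B rows, 5 of 42 B rows and 1.09% of 10789 genes. The median SD within groups of log2(FPKM + 0.1) in NB4 was 0.264 for 48 A-B rows, 0.150 for A rows, 0.251 for B rows and 0.149 for all genes, with median levels of 2.98, 5.89, 2.76 and 5.72 FPKM.

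The machinery that ends transcription and the machinery that removes faulty transcripts were followed by lists of genes. Of 29 genes of cleavage, polyadenylation and termination, 29 were tested and 0 were called in NB4 or Kasumi-1, with the block or without. In NB4 the 29 had a median log2 difference of 0.14, beside 0.18 for all genes. The lowest adjusted p in NB4 was that of PAPOLA, the poly(A) polymerase, with 18.1 ± 1.79 FPKM in controls and 22.7 ± 1.31 FPKM with OGP46 (log2 difference 0.33 ± 0.10, limma adjusted p = 0.0842). In Kasumi-1 the median of the 29 was 0.02, beside 0.05. Of 14 genes of nonsense-mediated decay, 0 were called in either line, with a median of 0.16 in NB4 and 0.02 in Kasumi-1. UPF2, a core decay factor, had the lowest adjusted p of this list in both lines, with log2 differences of 0.32 ± 0.10 in NB4 (0.105) and 0.21 ± 0.06 in Kasumi-1 (0.145).

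The lines themselves differed in many read-through rows, as they did in many genes. Of 51 rows tested between the controls, 14 were higher in NB4, beside 22.7% of 12302 genes, and 15 were higher in Kasumi-1, beside 29.7% (with the replicate block 14, beside 22.7%, and 17, beside 29.9%). Both shares of the 51 rows lie near this background. Some rows differed with their parents and others against them.

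TVP23C-CDRT4, of a Golgi vesicle protein and a gene of the region duplicated in Charcot-Marie-Tooth disease, had the widest difference. It was at 3.41, 3.08 and 3.00 FPKM in NB4 controls and at or below 0.0151 FPKM in Kasumi-1 controls, a difference of 4.96 ± 0.16 on log2(FPKM + 0.1) (SE, limma adjusted p = 5.43e-08). TVP23C went the same way, with 0.612 ± 0.125 FPKM in NB4 and 0.0276 ± 0.0252 FPKM in Kasumi-1, so that in NB4 the joined row stood above its upstream gene. URGCP-MRPS24 was higher in NB4 by 2.34 ± 0.34, JMJD7-PLA2G4B by 1.89 ± 0.48, PHOSPHO2-KLHL23 by 1.77 ± 0.27 and ZNF765-ZNF761 by 1.44 ± 0.51 on the same scale. The call of ZNF765-ZNF761 was lost without Kasumi-1 control 3 (0.84, limma adjusted p = 0.0767) and without NB4 control 2 (1.05, adjusted p = 0.0817), and with a pseudocount of 1 (0.41) or 0.01 and with no filter. PLA2G4B went the other way, lower in NB4 by a log2 difference of -3.02 ± 0.57.

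BUB1B-PAK6, of a spindle checkpoint kinase and a p21-activated kinase, was higher in Kasumi-1. It was at 0.0102, 0.0611 and 0.0712 FPKM in NB4 controls and at 1.67, 1.86 and 1.42 FPKM in Kasumi-1 controls, a difference of -3.59 ± 0.22 (SE, limma adjusted p = 8.06e-07). BUB1B went against it, with 22.4 ± 2.50 FPKM in NB4 and 11.7 ± 0.609 FPKM in Kasumi-1, a difference of 0.92 ± 0.09. In RefSeq the joined row does not share the start of BUB1B, which lies 56359 bp away. MINOS1-NBL1, of a mitochondrial cristae protein and a BMP antagonist, was at 1.22 ± 0.529 FPKM in NB4 and 13.5 ± 1.79 FPKM in Kasumi-1 (difference -3.43 ± 0.24), whereas MINOS1 was at 9.38 ± 1.53 and 7.68 ± 0.767 FPKM and was not called. NBL1 was near 0 in NB4 and at 0.358, 0.52 and 0.236 FPKM in Kasumi-1 controls. PTGES3L-AARSD1, ARMCX5-GPRASP2 and DNAJC25-GNG10 were also higher in Kasumi-1, with differences of -2.60 ± 0.22, -1.93 ± 0.22 and -1.71 ± 0.22. With a pseudocount of 1 the difference of ARMCX5-GPRASP2 was -0.36, under the minimum.

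**Figure D5:**
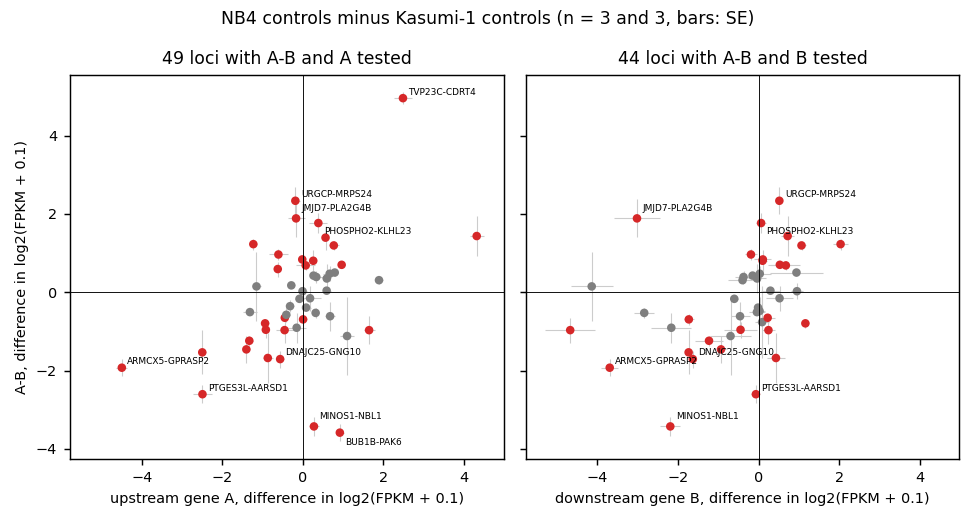
Difference between NB4 and Kasumi-1 controls in log2(FPKM + 0.1) of the A-B row (vertical) against that of A (left, 49 loci) and of B (right, 44 loci), 3 against 3 samples, bars are SE; red points are A-B rows called by limma, and named ones differ by more than 1.7. TVP23C-CDRT4 lies with its upstream gene at the top, whereas BUB1B-PAK6 is lower in NB4 although BUB1B is higher there.

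In 17 loci A-B and A were both called between the lines, and in 12 of them the sign was the same. It was opposite in BUB1B-PAK6, CHURC1-FNTB, CNPY3-GNMT, GPR75-ASB3 and ZNF559-ZNF177. A-B and B were both called in 13 loci, with the same sign in 11 and opposite signs in BIVM-ERCC5 and JMJD7-PLA2G4B. CHURC1-FNTB, named here because it is an exception and chosen after its values were seen, was at 7.68 ± 0.628 FPKM in NB4 controls and 3.25 ± 0.589 FPKM in Kasumi-1 controls. Its downstream gene FNTB, a farnesyltransferase subunit, was higher in NB4 by 2.04 ± 0.18 on the log2 scale, and its upstream gene CHURC1 was lower there by a log2 difference of -1.23 ± 0.10.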

How the data were processed

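mRNA-seq from poly(A) RNA was analysed in 12 samples, 4 groups of 3. The authors deposited FPKM per gene symbol. The submitters' processing notes list Trimmomatic, HISAT2, Cufflinks and HTSeq and the build hg38, with no versions. How fragments were divided between overlapping rows is not given in the sources used here, and depth is unknown. Of the symbols, 27 had turned into dates and were left out. Values were tested as log2(FPKM + 0.1) with limma 3.58.1 in R 4.3.3 on the genes whose mean over the samples compared reached 0.1 FPKM, with Benjamini-Hochberg adjustment over all of them. Same-numbered samples of a line deviated together (r from 0.197 to 0.622 in NB4 and from 0.157 to 0.395 in Kasumi-1). The highest r of a control with an OGP46 sample of another number was 0.224, -0.340 and 0.175 for NB4 controls 1, 2 and 3. It was 0.101, 0.027 and -0.217 for Kasumi-1 controls 1, 2 and 3. For NB4 control 3 this lies near the r of the same number, 0.197. The fit with the replicate number as a block is given where it changes a call. The members, lists and 3 of the named loci were chosen with earlier results of these data known. Loci named as members of a count of 5 or fewer were chosen after their values were seen. Named loci otherwise were those called, the 5 widest differences in each direction, the 10 highest levels, the 5 highest shares and the 5 widest line differences in each direction. In simulated NB4 data of 11750 genes, limma recovered 68.0% of 200 genes changed by 1 on the log2 scale and 93.0% of those changed by 2. It also called 8 and 6 unchanged genes. The simulated noise was drawn separately for each gene, without deviations shared by a sample or by same-numbered samples. These rates therefore do not give the power in the real data.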

Additional observations from a re-analysis of the deposited data

Results flagged for a closer look

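The OGP46 effect on 2 read-through rows differed between NB4 and Kasumi-1 by a limma test of the difference itself, with the replicate block and not without it. For PHOSPHO2-KLHL23 the NB4 effect lay below the Kasumi-1 effect by a log2 difference of -1.92 ± 0.33 (SE with the block, adjusted p = 0.0233). For URGCP-MRPS24 the value was -3.68 ± 0.71 (adjusted p = 0.0332), and it depends on the value added before the logarithm, since samples of both lines were near 0. With the block and every sample centred on its median, PHOSPHO2-KLHL23 stayed called (limma adjusted p = 0.0315) and URGCP-MRPS24 did not (0.0594). Without the block the limma adjusted p-values were 0.104 and 0.174. In PHOSPHO2-KLHL23 the sum of A-B and B had overlapping groups in both lines.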

How the results depend on the processing

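In NB4 the calls of A-B rows, 1 higher and 2 lower, depended on most settings. The number higher was 0 with a pseudocount of 0.01, with no filter, with the minimum mean raised to 1 FPKM, with values scaled as TPM and with median centring, was 4 with the replicate block, and ran from 0 to 2 when a sample was left out. The number lower was 1 with a pseudocount of 0.01, was 0 with no filter, a minimum mean of 1 FPKM, TPM scaling or median centring, was 4 with the replicate block and median centring, and ran from 0 to 2 when a sample was left out. Over all genes the NB4 calls went from 183 to 117 with a pseudocount of 1, 4 with no filter, 0 with TPM scaling or centring, and 730 with the block. In Kasumi-1, where 0 were called, the replicate block gave 1 higher, and the block with centring gave 1 higher and 1 lower. For the difference of effects the block gave 2 lower in NB4, and 1 with centring, PHOSPHO2-KLHL23. Between the lines, 14 and 15 became 9 and 9 with a minimum mean of 1 FPKM, and 14 and 17 with the replicate block, whose numbers did not pair the lines (r from -0.049 to 0.018). The median share of A-B (13.7% and 13.8% in NB4 controls and OGP46, 14.5% and 13.0% in Kasumi-1) was 21.6%, 22.9%, 27.0% and 22.9% when set against A alone and 59.05%, 56.7%, 44.91% and 46.8% when set against B alone. It ran from 11.98% to 14.35% with a Kasumi-1 control left out, the lowest without control 2, and from 13.25% to 13.89% with a Kasumi-1 OGP46 sample left out. Of the 125 log2 differences of named A-B rows, 41 changed sign under at least 1 setting (93 of 1888 values), and 0 of these 41 were called with all samples and the settings of the report. Under TPM scaling, the NB4 effect became -0.0399 in BCL2L2-PABPN1, -0.0551 in GPR75-ASB3, -0.0513 in RBM14-RBM4. Under median centring, with the replicate block and without it, the NB4 effect became -0.134 in BCL2L2-PABPN1, -0.1507 in GPR75-ASB3, -0.0177 in NEDD8-MDP1, -0.1455 in RBM14-RBM4, -0.081 in RPL36A-HNRNPH2, -0.071 in RPS10-NUDT3, -0.0006 in TMEM189-UBE2V1. Under a pseudocount of 1, the NB4 effect became 0.0277 in TMEM56-RWDD3. With a sample left out, the NB4 effect ran from -0.0771 to 0.1836 in GPR75-ASB3, -0.0806 to 0.3511 in NEDD8-MDP1, -0.0553 to 0.0765 in NME1-NME2, -0.0608 to 0.0536 in PMF1-BGLAP, -0.5018 to 0.4839 in TMEM56-RWDD3, -0.3066 to 1.963 in ZNF660-ZNF197. Under a pseudocount of 1, the Kasumi-1 effect became -0.0236 in LOC110117498-PIK3R3. Under median centring, with the replicate block and without it, the Kasumi-1 effect became -0.0399 in PPAN-P2RY11. With a sample left out, the Kasumi-1 effect ran from -0.2338 to 0.0211 in ARMCX5-GPRASP2, -0.0824 to 0.0117 in BCL2L2-PABPN1, -0.3995 to 0.1588 in BORCS8-MEF2B, -0.1733 to 0.0103 in BUB1B-PAK6, -0.0063 to 0.2107 in GPR75-ASB3, -0.3227 to 1.014 in JMJD7-PLA2G4B, -0.6468 to 1.159 in LOC110117498-PIK3R3, -0.1568 to 0.0343 in MINOS1-NBL1, -0.6189 to 1.764 in MSANTD3-TMEFF1, -0.0348 to 0.1008 in PPAN-P2RY11, -0.0381 to 0.3288 in RPL17-C18orf32, -0.1161 to 0.0144 in RPL36A-HNRNPH2, -0.091 to 0.0119 in RPS10-NUDT3, -0.0745 to 0.0028 in TMEM189-UBE2V1, -0.3938 to 0.2019 in ZNF660-ZNF197. Under TPM scaling, the difference of effects became -0.0235 in BCL2L2-PABPN1, -0.1007 in NME1-NME2. Under median centring, with the replicate block and without it, the difference of effects became -0.0274 in BCL2L2-PABPN1, -0.1043 in NME1-NME2. Under a pseudocount of 1, the difference of effects became 0.0083 in BUB1B-PAK6. Under a pseudocount of 0.01, the difference of effects became -0.2562 in PTGES3L-AARSD1. With a sample left out, the difference of effects ran from -0.1843 to 0.5393 in C8orf44-SGK3, -0.0657 to 0.7109 in CNPY3-GNMT, -0.1666 to 0.0941 in GPR75-ASB3, -0.9655 to 1.417 in MSANTD3-TMEFF1, -0.0039 to 0.1279 in NME1-NME2, -0.1359 to 0.0573 in RBM14-RBM4, -0.1371 to 2.133 in ZNF660-ZNF197. Under TPM scaling, the line difference became 0.0361 in BCL2L2-PABPN1. Under a pseudocount of 1, the line difference became -0.1414 in MSANTD3-TMEFF1. With a sample left out, the line difference ran from -1.787 to 0.0189 in LOC110117498-PIK3R3, -0.9293 to 1.184 in MSANTD3-TMEFF1, -0.0067 to 0.0705 in TMEM189-UBE2V1, -2.017 to 0.2532 in ZNF660-ZNF197. The causes of these changes were not tested. The depth is unknown, so no counting error can be given for low FPKM.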

Other observations

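HSPE1-MOB4 is a further locus where the downstream row was listed in some samples and not in others. MOB4, an adaptor of the STRIPAK complex, was at 0.607 FPKM in NB4 control 2 and at 1.10 and 1.20 FPKM in NB4 OGP46 samples 1 and 3, and below 0.01 FPKM in the other NB4 samples. In Kasumi-1 it was below 0.01 FPKM in the 3 controls and in OGP46 sample 2, and at 0.549 and 0.625 FPKM in OGP46 samples 1 and 3. HSPE1-MOB4 itself stayed between 11.1 and 23.4 FPKM over the 12 samples. CNPY3-GNMT in Kasumi-1 was at 0.357, 0.529 and 0.615 FPKM in controls and at 0.14, 0.268 and 0.605 FPKM with OGP46, with overlap. These loci were chosen after their values were seen, and no test was added.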
